A study of Homo sapiens with 30 samples.

Results

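Trimethylation of histone H3 at lysine 27 (H3K27me3) was compared between RWPE1 prostate epithelial cells that express ERG and RWPE1 cells that express ERG S96E, a form of ERG in which serine 96 is replaced by glutamate to mimic phosphorylation. The comparison rests on 2 of the 30 samples of the series, 1 ChIP-seq library of each line. It was chosen by its cell lines and antibody and not by any measured value. RWPE1 is an immortalised line from normal prostate epithelium, grown in keratinocyte serum-free medium. The ERG line was transduced with a retrovirus that carries pQCXIH-ERG, isoform 1, and the ERG S96E line with pQCXIH-ERG S96E of the same isoform. The RWPE1-Vector line, which carries the empty pQCXIH and was probed with the same antibody, gave another list that is set beside the pair. The labels describe culture with antibiotic selection for these lines and name no clone, so each line is a transduced population driven by a viral promoter and not a prostate tumour. DNA from 3 ChIP experiments was pooled into each library. There was therefore no replicate library, no spread between replicates could be measured and no test was made.

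H3K27me3 is laid down by Polycomb repressive complex 2, whose catalytic subunit is EZH2, and it is found over genes that are kept silent, most densely over the genes of developmental transcription factors. PRC1 binds chromatin that carries the mark, and the demethylases KDM6A and KDM6B remove it. ERG is an ETS transcription factor that is absent from normal prostate epithelium and is expressed in many prostate tumours after fusion to TMPRSS2, and its serine 96 is a site of phosphorylation by ERK. The study asked whether phosphorylation of this serine alters how ERG works with EZH2, and the H3K27me3 libraries bear on where the mark lies when the phosphomimetic form is present. At promoters and enhancers bound by ERG, the study reported less H3K27me3 signal in ERG S96E cells than in ERG cells. ERG-bound sites were not examined here. The loci, windows and gene starts below are not limited to such sites, and they are described by region coverage and not by signal.

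The authors deposited 228233 broad regions of enrichment over input for the ERG line, 252784 for the ERG S96E line and 492265 for the vector line, in hg19 coordinates. To compare like with like, the 228233 regions with the lowest p-value were taken from each list. For each gene, the share of its locus that lay inside the regions of each list was measured, and a difference of at least 20 percentage points was taken as more or less coverage. The loci are those of the RNA-seq table of the same series, and 24478 genes with a locus of at least 1 kb on chromosomes 1 to 22 and X were measured. They lie at 19241 distinct loci, because the table gives overlapping genes 1 shared locus, and genes that share a locus have the same coverage. The ERG library held 16513053 ChIP reads and its input 9675359, whereas the ERG S96E library held 26454542 and its input 19065760. The vector library held 19444504 ChIP reads and its input 15679418. Reads were 84 bp long in the ERG and vector libraries and 74 bp in the ERG S96E library. Between ERG and ERG S96E cells, line, read depth and read length changed together, so their parts in any difference below cannot be told apart. The RNA-seq table covers the vector and ERG lines, as FPKM pooled over 3 libraries a line, and not the ERG S96E line.

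The identity of the vector and ERG cells was checked against marker RNA. The basal epithelial keratin gene KRT5 was at 3130 FPKM in vector cells and 1170 FPKM in ERG cells, and TP63, which encodes the basal factor p63, was at 36.3 and 21.3 FPKM. Among other basal keratin genes KRT14 was at 2940 and 700 FPKM, KRT17 at 3110 and 1770 and KRT15 at 33.3 and 80.3. The luminal keratin gene KRT8 was at 622 and 1770 FPKM, KRT18 at 817 and 1840 and KRT19 at 367 and 956. The luminal factor gene FOXA1 was at 3.24 and 4.66 FPKM. Mesenchymal genes were also expressed, VIM at 737 and 1060 FPKM, FN1 at 83.7 and 228 and CDH2 at 3.04 and 7.38, with ZEB1 at 0.501 and 0.361. KLK3, a gene of luminal prostate cells, was listed at 0 in both lines. The endothelial genes PECAM1 and CDH5 and the leukocyte gene PTPRC were each under 0.1 FPKM in both lines. The monocyte gene CD14 was at 0.764 and 0.505 FPKM, and the neuronal gene SYT1 at 0.321 and 0.598. None of the 12 basal marker genes had a coverage difference of 20 points. Over all genes 9.18% had that much more coverage in ERG S96E cells and 0.229% that much less, so 0 of 12 says little.

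The regions of the ERG S96E list were wider than those of the ERG list, and their median enrichment was slightly higher. At the same number of regions, the ERG list covered 138.4 Mb and the ERG S96E list 214.5 Mb. The median region spanned 419 bp in ERG cells and 499 bp in ERG S96E cells. The median enrichment was 1.94-fold in ERG cells, 2.04-fold in ERG S96E cells and 2.0-fold in vector cells. The vector list covered 123.0 Mb, and its median region spanned 384 bp. The widest ERG S96E region was 100330 bp and the widest ERG region 35720 bp. Regions of at least 10 kb numbered 1187 in the ERG S96E list, 121 in the ERG list and 16 in the vector list. At a q-value of at most 0.01, 3413 ERG S96E regions, 39 ERG regions and 29 vector regions remained, so most regions of every list were weak. When regions within 3 kb of each other were joined, the ERG S96E list gave 601 domains of at least 50 kb and 99 of at least 100 kb, and the ERG list 138 and 14.

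The wide ERG S96E regions lay where the ERG list had several shorter ones. Each of the 1187 overlapped at least 1 ERG region, with a median of 5 and an interquartile range of 4 to 7, and a median of 68.5% of their length was covered in the ERG list. Over the whole lists, 44.02% of ERG regions overlapped an ERG S96E region and 34.5% of ERG S96E regions overlapped an ERG region by at least 1 bp. The share of ERG regions that overlapped was 64.0% in the first 57059 by p-value and 29.0% in the last 57058. The regions with the best statistics were thus the ones most often found in both lines.

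The region with the lowest p-value in the ERG S96E list shows this arrangement. It was a single region of 45.8 kb at chr9:115820988-115866780, between the zinc finger gene ZFP37 and the noncoding RNA gene FAM225B, with an enrichment of 11.89-fold. The same interval held 11 regions in the ERG list, with enrichments of 1.95- to 7.28-fold and 86.0% of the interval covered, and 11 regions in the vector list, with enrichments of 2.07- to 4.07-fold. The region over LHX1, a LIM homeobox gene of kidney and head development, was 20.5 kb long and 10.61-fold enriched in the ERG S96E list. In the ERG list it was split into 3 regions of 3.14- to 3.46-fold. Not every such region was higher. The region over ART1, the second by p-value in the ERG S96E list and the first in the ERG list, was 3.49-fold enriched in ERG S96E cells and 3.52-fold in ERG cells. The regions of lowest p-value in the ERG S96E list also included those over PRDM12, a regulator of sensory neurons, at 10.6-fold, SLC32A1, the vesicular GABA transporter, at 8.61-fold, BARHL1 at 10.03-fold, LHX9 at 8.22-fold and FOXB2 at 9.92-fold. In the ERG list the highest enrichment within those 5 regions was 4.64-fold, 4.51-fold, 4.51-fold, 4.51-fold and 4.48-fold. The intervals of this paragraph were chosen and bounded in the ERG S96E list, which favours higher values there. Regions of lowest p-value in the ERG list went both ways. One over GATA5 was 5.17-fold in ERG cells against 4.39-fold, and one over LHX3 7.03-fold against 8.38-fold. These ERG regions spanned 516 bp and 2471 bp, and the ERG S96E regions that overlapped them 23456 bp and 29772 bp. The folds are therefore not taken over the same interval. Around PAX2, a factor of kidney development, a joined domain of 276.5 kb at chr10:102358883-102635357 was covered to 66.9% by 94 ERG regions and to 90.3% by 47 ERG S96E regions. ERG S96E cells thus had fewer regions here and a larger covered share, and their widest region was 62.4 kb where that of ERG cells was 10.5 kb.

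**Figure D1:**
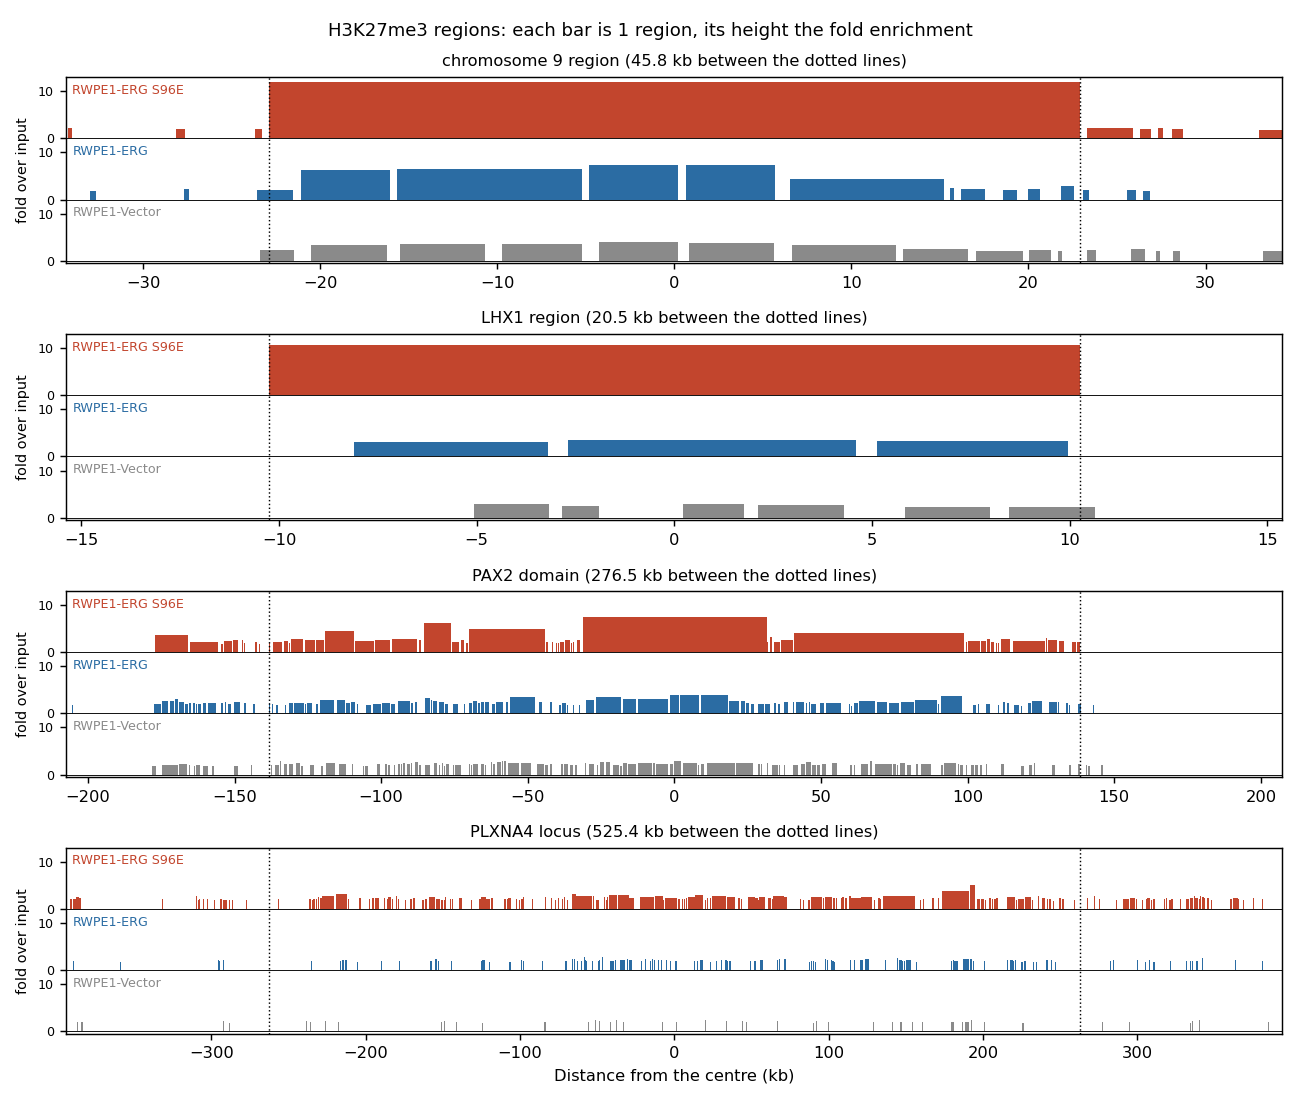
H3K27me3 regions in 4 intervals, plotted against the distance from the interval's centre in kb. Each bar spans 1 region and its height is the fold enrichment over input, for the ERG S96E, ERG and vector lists at equal numbers of regions. The chromosome 9 and LHX1 intervals are each filled by 1 bar in ERG S96E cells and by 11 and 3 shorter bars in ERG cells, and the PLXNA4 locus is covered to 55.9% against 19.0%.

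Over the genes, large differences were mostly on the side of ERG S96E cells, while smaller ones went both ways. Coverage was higher by any amount in ERG S96E cells at 8979 genes and lower at 3775. It was at least 20 points higher in ERG S96E cells at 2246 of the 24478 genes, 9.18% of those measured, and at least 20 points lower at 56, or 0.229%. The median difference over all genes was 0.0 points, since 11681 genes had no region in either list. The mean coverage was 5.17% in ERG cells, 9.84% in ERG S96E cells and 4.43% in vector cells. Among the 2246 genes, the median coverage was 18.08% in ERG cells and 56.47% in ERG S96E cells, and 1899 of them, 84.6%, already had some coverage in ERG cells. The ERG and vector lists, compared by the same rule, differed at fewer genes. Both of those libraries had 84-bp reads, whereas the ERG S96E library had 74-bp reads and a greater depth than either. ERG cells had at least 20 points more coverage than vector cells at 603 genes and less at 168, and ERG S96E cells had more than vector cells at 2739 and less at 75. These 3 comparisons share lists and are given side by side.

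The ERG S96E list also covers the larger area. When the ERG S96E list was cut at the lowest p-values until it covered the same 138.4 Mb as the ERG list, which left 95001 regions, 1404 genes had more coverage in ERG S96E cells and 113 had less, which are 5.74% and 0.462% of those measured. The 1404 were all among the 2246, and the 113 included all 56, as must be so when only the ERG S96E list is shortened.

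The homeobox genes outside the HOX clusters, which encode transcription factors that set cell and tissue identity, had the largest median coverage after the bHLH factors in ERG S96E cells. Their median coverage was 52.9% in ERG cells, 86.0% in ERG S96E cells and 25.7% in vector cells. Over all genes 9.18% had at least 20 points more coverage in ERG S96E cells and 0.229% at least 20 points less. Of the 105 homeobox genes measured, 50 had more and 0 had less, and the 0 says little. In ERG cells 24 of them were already covered over more than 80% and could not pass the threshold, and 39 were covered from end to end in ERG S96E cells where 5 were in ERG cells. With equal covered bases, 41 of the 105 had more coverage.

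NKX2-8, which encodes an NK homeobox factor of foregut and lung, was covered to 0.0% in ERG cells and 100% in ERG S96E cells, over a locus of 2.6 kb. SIX2, a factor of kidney progenitors, was covered to 14.3% and 87.3%. POU3F4, a POU factor of the inner ear and brain, was covered to 33.3% and 100%, MNX1, a factor of motor neurons and pancreas, to 12.4% and 76.0%, and HMX1, over a longer locus of 25.7 kb, to 37.4% and 87.8%, these 3 being chosen after their values were seen. These genes had little coverage in vector cells, with 0.0% at NKX2-8, 14.0% at SIX2, 15.2% at POU3F4, 0.0% at MNX1 and 3.3% at HMX1. Other members did not differ in this way. ALX1, a factor of the facial skeleton, was covered to 27% and 26.8%, and MEOX2, a factor of somites and vessels, to 10.0% and 5.3%, and their loci had 31.6% and 34.8% G and C bases where those of NKX2-8 and SIX2 had 64.4% and 59.0%. Of the 50, 3 were at or above 1 FPKM in ERG cells. SIX2 was at 2.12 FPKM, LHX6, at 17.3 FPKM, was covered to 12.3% and 35.6% and IRX3, at 7.34 FPKM, to 0.0% and 29.7%.

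**Figure D2:**
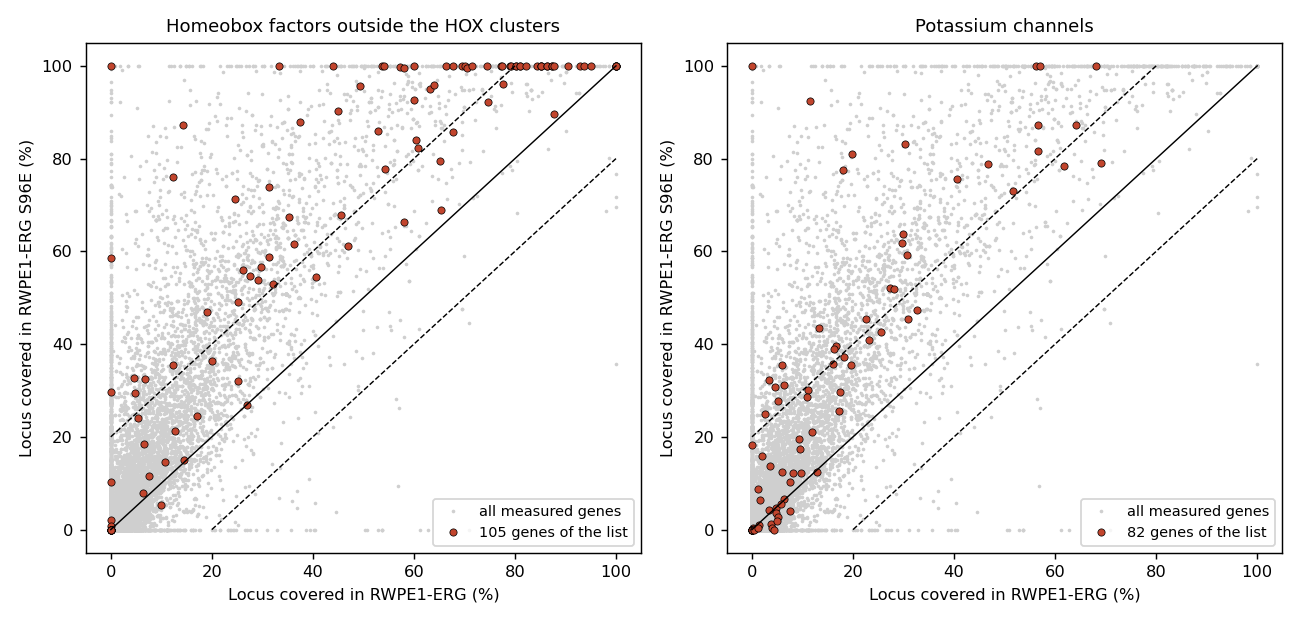
The share of each gene's locus covered by H3K27me3 regions in ERG cells (x axis, %) and in ERG S96E cells (y axis, %). Grey points are the 24478 measured genes and red points the 105 homeobox genes outside the HOX clusters (left) and the 82 potassium channel genes (right), with equality as the solid line and 20 points as the dashed lines. Of the red points, 50 on the left and 29 on the right lie on or above the upper dashed line and 0 lie below the lower one. Over all genes the shares are 9.18% and 0.229%.

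Promoters of SIX2 and NKX2-8 are shown beside 3 from genes with less coverage in ERG S96E cells, because the base composition of a locus moved with the difference. Each is the 250 bases before the gene start of GENCODE, read from GRCh37, 5′ to 3′ on the gene's strand, with each CpG in capitals. They were chosen after their values were seen.
SIX2 (chr2:45236592-45236841, minus strand): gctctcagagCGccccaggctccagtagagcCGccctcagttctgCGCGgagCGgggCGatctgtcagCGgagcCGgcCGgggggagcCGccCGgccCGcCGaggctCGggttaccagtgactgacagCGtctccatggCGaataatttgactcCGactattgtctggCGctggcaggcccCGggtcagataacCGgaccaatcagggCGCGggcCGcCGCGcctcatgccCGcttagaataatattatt
NKX2-8 (chr14:37051820-37052069, minus strand): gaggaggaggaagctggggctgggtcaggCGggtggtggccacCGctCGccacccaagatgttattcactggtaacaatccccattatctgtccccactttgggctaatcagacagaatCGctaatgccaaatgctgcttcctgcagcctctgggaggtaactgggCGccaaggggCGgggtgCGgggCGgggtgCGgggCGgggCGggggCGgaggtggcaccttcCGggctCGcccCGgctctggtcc
CRP (chr1:159684380-159684629, minus strand): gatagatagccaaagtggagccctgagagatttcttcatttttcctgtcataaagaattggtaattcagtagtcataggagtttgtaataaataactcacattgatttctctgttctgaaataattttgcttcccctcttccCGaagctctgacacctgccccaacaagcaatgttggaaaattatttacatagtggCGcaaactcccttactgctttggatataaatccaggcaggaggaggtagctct
NPVF (chr7:25268106-25268355, minus strand): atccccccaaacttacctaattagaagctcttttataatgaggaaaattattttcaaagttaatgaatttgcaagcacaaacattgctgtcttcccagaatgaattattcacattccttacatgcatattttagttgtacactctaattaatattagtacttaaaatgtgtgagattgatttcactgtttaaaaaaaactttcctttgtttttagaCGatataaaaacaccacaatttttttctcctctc
PDHA2 (chr4:96760994-96761243, plus strand): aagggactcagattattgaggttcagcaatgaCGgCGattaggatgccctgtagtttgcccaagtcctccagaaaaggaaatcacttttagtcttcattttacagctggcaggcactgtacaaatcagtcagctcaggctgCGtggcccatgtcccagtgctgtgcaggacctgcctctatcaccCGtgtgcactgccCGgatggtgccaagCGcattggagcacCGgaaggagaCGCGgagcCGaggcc

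The SIX2 and NKX2-8 stretches held 26 and 15 CpG, and those of CRP, NPVF and PDHA2 held 2, 1 and 10. At least 26 CpG were found in 21.2% of the same stretches of all 17254 protein-coding genes, at least 15 in 50.1% and at least 2 in 91.7%. The median was 18.0 CpG for the 105 homeobox genes and 2.0 for the 30 protein-coding genes with less coverage in ERG S96E cells. It was 9.0 for the 1608 protein-coding genes with more coverage and 15.0 for all, so the genes with more coverage as a whole did not have CpG-dense starts.

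The 4 HOX clusters, which pattern the body axis and stay partly active in prostate epithelium, differed from each other. Of 38 genes at 30 loci, 11 had at least 20 points more coverage in ERG S96E cells and 0 had less. The 11 were 28.9% of the list, beside 9.18% of all genes, and the 0 stands beside 0.229% of all genes. In the HOXC cluster 7 of 9 genes did, with a median coverage of 19.9% in ERG cells, 53.3% in ERG S96E cells and 11.7% in vector cells. HOXC9 was covered to 29.9% and 100%, HOXC12 to 50.2% and 100%, HOXC10 to 19.9% and 64.0%, and HOXC4, HOXC5 and HOXC6, which share a locus, to 15.5% and 53.3%. In the HOXA cluster 1 of 11 genes did. That gene was HOXA13, at the end of the cluster, with 0.0% and 27.1%, while the other 10 HOXA genes had no coverage in either line, and 10 of the 11 were at or above 1 FPKM in ERG cells. HOXD13, covered to 79.2% and 100%, and HOXB13, a factor of the prostate, covered to 76.0% and 100%, were likewise at the ends of their clusters. HOXB4 was covered to 0.0% in both ERG lines and 58.1% in vector cells, over a locus of 2.9 kb.

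**Figure D3:**
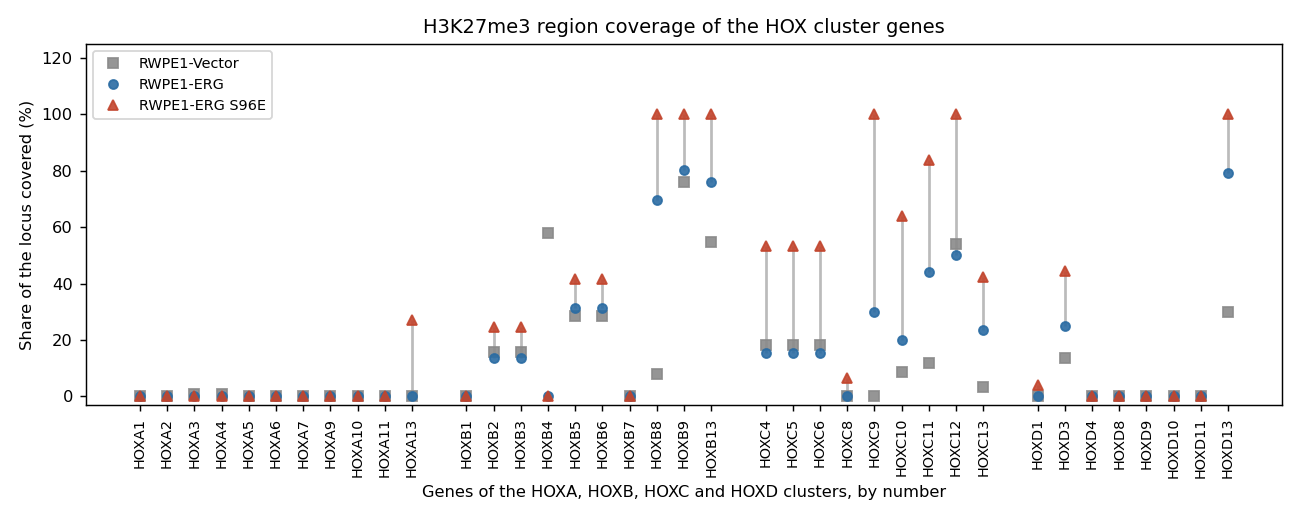
The share of the locus covered by H3K27me3 regions (y axis, %) for each of the 38 HOX genes in order within the HOXA, HOXB, HOXC and HOXD clusters. Squares are vector cells, circles ERG cells and triangles ERG S96E cells, 1 library each, with a line from the ERG to the ERG S96E value. HOXC genes stand apart with 7 of 9 above by at least 20 points, and 10 of the 11 HOXA genes lie at 0.0% in both ERG lines.

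Among other families of developmental factors, the share of genes with more coverage was 42.9% for tissue bHLH, 55.6% for PAX, 33.3% for FOX, 36.8% for SOX, 23.5% for T-box and 16.7% for GATA factors, beside 9.18% of all genes. Tissue bHLH factors, which drive muscle and neuron formation, had a median coverage of 38% in ERG cells and 86.6% in ERG S96E cells, and 15 of 35 had more coverage. MYF6 and MYF5, muscle factors that lie side by side, were covered to 34.2% and 100% and to 18.5% and 78.4%, and OLIG1, a factor of oligodendrocytes, to 38% and 100%. The neuronal factor NEUROD1 was covered to 80.5% and 79.4%. Among PAX factors 5 of 9 had more coverage, and PAX1, a factor of the vertebral column, was covered to 50.1% and 94.5%. PAX3, with 40.5% G and C bases, was covered to 58.0% and 66.4%. Among FOX factors 15 of 45 had more coverage, with FOXS1 covered to 0.0% and 94.1%, FOXD4 to 25.0% and 100% and FOXL1 to 28.2% and 100%, and FOXP2 to 7.0% and 3.2%. The FOXS1 difference was 0.0 points with equal covered bases. The SOX median was lower in ERG S96E cells, at 4.7% in ERG cells and 3.0% in ERG S96E cells, with a median difference of 0.0 points. Among SOX factors 7 of 19 had more coverage, with SOX18, an endothelial factor, covered to 21.6% and 100% and SOX11 to 33.8% and 84.4%. SOX5 and SOX6, which lie at long loci of 1030.2 and 509.9 kb, were covered to 4.7% and 3.0% and to 2.7% and 1.1%. T-box factors had more coverage at 4 of 17 genes, TBX2 with 17.8% and 83.7% among them, and GATA factors at 1 of 6, GATA5, with 58.6% and 89.8%. None of the members of these 6 families had at least 20 points less coverage. Over all genes only 0.229% did, so this count of 0 says little.

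Among secreted ligands the median coverage in ERG and ERG S96E cells was 4.0% and 20.8% for WNT, 5.6% and 14.4% for FGF, and 2.8% and 8.6% for BMP and GDF ligands. Over all genes 9.18% had more coverage. Of the WNT ligands 6 of 19 did, or 31.6%, with WNT6 at 19.5% and 55.4% and WNT3A at 4.0% and 38.8%, and WNT7B and WNT9A, at 5.78 and 3.72 FPKM in ERG cells, were at 0.0% in both lines. Of the FGF ligands 7 of 22 had more coverage, or 31.8%. FGF3 and FGF4, which are neighbours on chromosome 11, were covered to 33.4% and 92.6% and to 43.2% and 83.1%, and FGF12 to 13.9% and 12.1%. FGF17 was covered to 0.0% and 63.1%, a difference that was 0.0 points with equal covered bases. Of the BMP and GDF ligands 3 of 20 had more coverage, or 15.0%, and 2 of 20 with equal covered bases. These included BMP4 with 58.6% and 96% and GDF7 with 66.8% and 92.6%, and BMP3 was covered to 38% and 34.8%.

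Genes of excitable cells made up another group. Of 82 potassium channel genes 29, or 35.4%, had more coverage and 0 had less, beside 9.18% and 0.229% of all genes. The medians of these channel genes were 7.9% in ERG cells and 25.2% in ERG S96E cells. KCNA5, a cardiac channel, was covered to 0.0% and 100%, but to 55.7% in vector cells, and KCNA7 to 11.5% and 92.4%. KCNJ8 and KCNT2 were covered to 4.3% and 0.0% and to 3.9% and 0.3%. The GABA-A receptor median was 7.5% in ERG cells and 5.6% in ERG S96E cells, and −1.9 points was the median difference with equal covered bases. Glutamate receptors had more coverage at 7 of 26 genes, with GRM4 at 17.2% and 54.3%, and GABA-A receptors at 4 of 19, with GABRR2 at 14.4% and 52.9%, while GRIA4 was covered to 6.7% and 2.6%. The list of neuronal genes, with medians of 2.6% and 2.1%, had more coverage at 1 of 23, or 4.3%, below the 9.18% of all genes. That gene was RBFOX3, the neuronal antigen NeuN, with 41.0% and 79.1%. The median G and C content of the neuronal loci was 38.2% and that of the potassium channel loci 48.7%.

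Adhesion and guidance genes were mixed. The clustered protocadherins, which give neurons their surface identity, had medians of 34.6% in ERG cells, 50.9% in ERG S96E cells and 1.9% in vector cells. The alpha and gamma clusters are each 1 locus in the table, with 18.6% and 29.3% and with 34.6% and 50.9%. The medians of the list are thus the values of the gamma locus, which 22 genes share. Of the 16 beta genes, which have loci of their own, 9 had more coverage, with PCDHB5 at 9.0% and 83.6% and PCDHB15 at 19.2% and 86.4%, whereas PCDHB4 was at 61.1% and 43.3% and PCDHB16 at 80.4% and 68.3%. Vector cells had 0.0% at these 4 beta genes. The beta genes resemble each other in sequence, so reads may be split between them. Ephrins and their receptors had more coverage at 5 of 22 genes, EFNB3 with 27% and 80.8%, semaphorins and plexins at 4 of 29, classical cadherins at 3 of 23, collagens at 3 of 43 and integrins at 2 of 30. These shares were 22.7%, 13.8%, 13%, 7.0% and 6.7%, beside 9.18% of all genes, so collagens and integrins lay below the share of all genes. COL2A1, the cartilage collagen, was covered to 21.7% and 58.9%. Among matrix metalloproteinases 4 of 24 had more coverage, with MMP9 at 37% and 84.6% and MMP7 at 11.1% and 0.0%.

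Of 55 keratin genes, the structural filaments of epithelium and hair, 10 had more coverage and 1 had less. None of the 10 reached 1 FPKM in ERG cells, and 34 of the 55 were under 0.1 FPKM in both RNA lines. KRT76 and KRT73, which belong to differentiated epithelium and hair sheath, were covered to 9.6% and 69.9% and to 24.0% and 76.9%. KRT222 was covered to 33.5% and 13.3%. The expressed keratin genes KRT5, KRT8 and KRT17 had 0.0% in both lines. Keratin-associated proteins, which build the hair shaft, had more coverage at 23 of 36 genes and less at 1, and all 36 were under 0.1 FPKM in both RNA lines, but 16 of the 23 lie on chromosome 21, where the 18 genes occupy 3 loci. Late cornified envelope and SPRR genes had more coverage at 8 of 31. Olfactory receptors, short genes in clusters, had more coverage at 18 of 96 and less at 6, and with equal covered bases at 4 and 11, so their balance changed sides with the number of regions used. Zinc finger ZNF genes had more coverage at 9 of 524, or 1.7%, below the 9.18% of all genes.

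**Figure D4:**
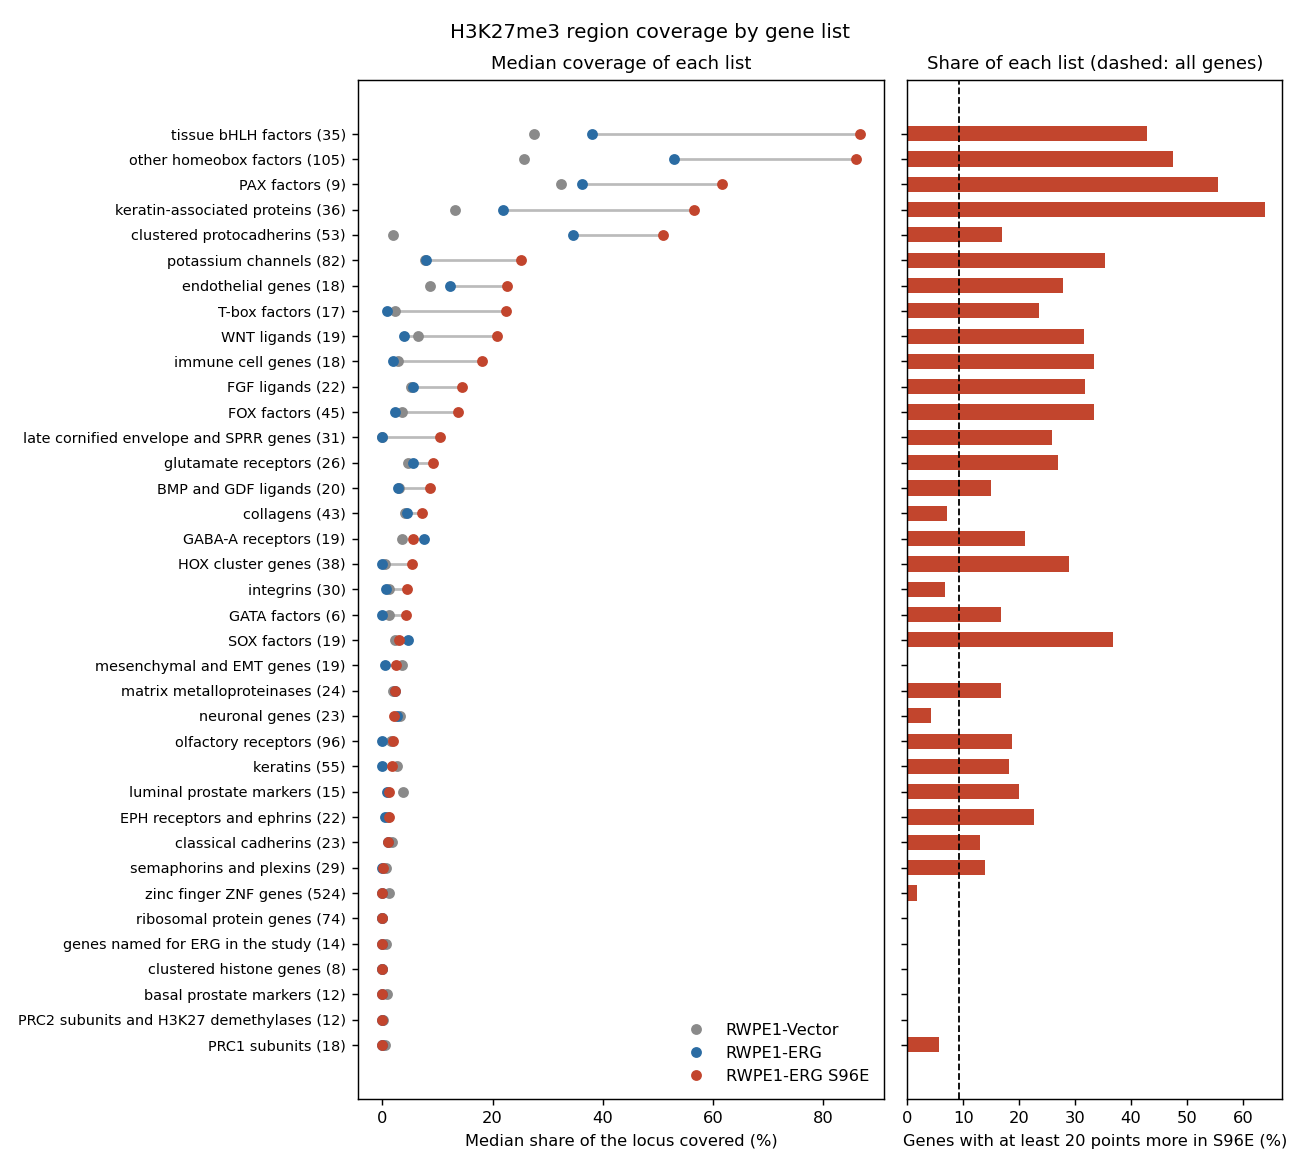
Left, the median share of the locus covered by H3K27me3 regions (%) for each of 37 gene lists, with the number of genes measured in parentheses, in vector (grey), ERG (blue) and ERG S96E (red) cells, 1 library each. Right, the share of each list with at least 20 points more coverage in ERG S96E cells (%), with the 9.18% of all genes as the dashed line. The keratin-associated proteins reach 63.9%, with genes that share a locus counted separately, and the homeobox factors 47.6%. By distinct locus these are 8 of 20 and 50 of 105. Ribosomal protein genes, PRC2 subunits and basal markers lie at 0.0%.

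Genes of the Polycomb machinery and of housekeeping had little or no coverage in either line. Over all genes 9.18% had at least 20 points more coverage in ERG S96E cells and 0.229% at least 20 points less. A count of 0 in a list of 12 to 19 genes therefore says little about that list. The 12 PRC2 subunit and demethylase genes had 0 differences of 20 points, and EZH2, EED and SUZ12 had no region in either ERG line. Of the 74 ribosomal protein genes 0 differed, and 68 had no region in either line. Of the 18 PRC1 genes 1 had more coverage, PCGF1 with 0.0% and 28.6%, at a locus shared with 2 other genes. The 14 genes that the study names for ERG had 0 differences of 20 points. TP63 was covered to 0.2% and 0.0% and ETS1, an ETS factor related to ERG, to 2.7% and 12.1%. Of the 19 mesenchymal genes 0 differed. ZEB1, a repressor of epithelial genes, was covered to 13.6% and 8.9%, and FN1, which encodes fibronectin, to 0.0% in both lines. Of the 15 luminal prostate genes 3 had more coverage. These were the neighbouring kallikrein genes KLK3 with 10.8% and 65.1% and KLK2 with 34.9% and 86.2%, and HOXB13. Genes of endothelial cells had more coverage at 5 of 18, with CLDN5, a tight junction gene, at 27.4% and 100%, and genes of immune cells at 6 of 18, with CD14, a receptor of monocytes, at 10.7% and 86.7% and NKG7, of cytotoxic lymphocytes, at 0.0% and 100%. Among the 37 lists, 26 had a larger share of genes with more coverage than all genes together.

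The largest differences at loci of at least 10 kb were spread over genes of many kinds. Of the 12 with the largest difference among the 568 that had more coverage also with all regions and with equal covered bases, 11 are described here. The use of all regions could remove no gene, since it only lengthens the ERG S96E list. IQCA1L at chr7:150887961-150902582 was covered to 7.4% in ERG cells and 84.8% in ERG S96E cells, and the noncoding RNA gene LINC01114 at chr2:105363095-105374177 to 19.4% and 87.6%. Both of these had under 10% in vector cells. The myeloid receptor gene CD300LB at chr17:72517313-72527613 was covered to 10.5% and 77.9%, and SIGLEC11, which encodes a receptor for sialic acid, at chr19:50452250-50464429 to 10.9% and 76.2%. C14orf180 was covered to 4.8% and 68.6%, and LOC148709 to 7.1% and 70.0%. ALOX12B, a lipoxygenase of the skin barrier, at chr17:7975954-7991021, was the only one of the 11 with 0.0% in ERG cells, against 59.9% in ERG S96E cells and 11.6% in vector cells. The sulfotransferase CHST1 was covered to 28.8% and 87.3%, the Notch target HEYL to 26.2% and 84.6%, ZNF469 to 14.0% and 72.4%, and the synaptic scaffold SHANK1, the longest of them at 55.1 kb, to 19.0% and 77.3%. All 11 were under 0.2 FPKM in vector and ERG cells, and their loci had 46.4% to 66.2% G and C bases.

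The genes with less coverage in ERG S96E cells were short. Of the 56 genes, at 53 loci, 55 had a locus under 10 kb and 32 under 2 kb, where 22.3% of all measured genes were under 10 kb. Their median locus was 1.7 kb, so 1 or 2 regions decide each value. None of them at 10 kb or more had less coverage under all 3 selections of regions, and the following were chosen after their values were seen. Several belong to families of near-identical copies whose reads cannot be placed with certainty. USP17L20 and USP17L21 were covered to 70.9% and 0.0% and to 61.2% and 0.0%. HNRNPCL3 and HNRNPCL4, which share a locus and so have the same value, were covered to 53.6% and 0.0%. The cytokine genes IL5, IL3 and IL2, of T cells, were covered to 28.7% and 0.0%, 23.2% and 0.0%, and 24.7% and 0.0%. CRP, the C-reactive protein of liver, was covered to 21.6% and 0.0%, the neuropeptide gene NPVF to 32.9% and 0.0% and the testis gene PDHA2 to 38.7% and 0.0%. No gene of the 56 was at or above 1 FPKM in ERG cells.

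In windows of 100 kb, differences of at least 20 points were again on the side of ERG S96E cells, while smaller ones went both ways. Coverage was higher in ERG S96E cells in 13889 windows and lower in 10293. Of 28079 windows 1014, or 3.61%, had at least 20 points more coverage in ERG S96E cells and 0 had at least 20 points less. The differences ranged from −10.8 to 46.3 points. With equal covered bases the count was 301 and again 0. The called windows formed 631 runs. The longest, of 800 kb at chr1:18100001-18900000, holds IGSF21, a synaptic adhesion gene, with ACTL8 and KLHDC7A, and its mean coverage was 29.2% in ERG cells, 56.8% in ERG S96E cells and 27.4% in vector cells. A run of 700 kb at chr12:2200001-2900000 lies on CACNA1C, which encodes a calcium channel of heart and brain, with 34.8%, 66.9% and 25.7% in the same order. Another of 700 kb at chr9:137600001-138300000 holds COL5A1, OLFM1, FCN1 and FCN2, with 44.2%, 69.8% and 40.2%. The run of 600 kb at chr7:131800001-132400000 lies on PLXNA4, a receptor for semaphorins, and had the lowest starting level, with 17.3% in ERG cells, 52.1% in ERG S96E cells and 4.8% in vector cells. The run of 600 kb at chr11:134200001-134800000 holds B3GAT1 and GLB1L2, with 28.2%, 54.9% and 20.5%. In these 5 runs the ERG and vector lists also held regions, and the mean G and C content was 46.7% to 53.6%.

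Coverage was higher in ERG S96E cells on each of the 23 chromosomes, by ratios from 1.15 on chromosome 4 to 3.23 on chromosome 22. The ERG S96E list covers the larger area as a whole, 214.5 Mb against 138.4 Mb. Chromosomes were not compared at equal covered bases. Chromosome 20 was the most covered in both lines, with 10.59% and 18.04% of its windows' length, and 13.27% of its windows had at least 20 points more. Of the 10 widest ERG S96E domains 5 lie there, and the widest, of 465.2 kb, runs over EDN3, ZNF831 and part of PHACTR3. Chromosome X had the least coverage in both lines, with 0.59% and 1.32%.

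The difference moved with base composition. In windows with under 38% G and C bases the mean coverage was 2.74% in ERG cells and 2.02% in ERG S96E cells, and 67.49% of the windows were lower in ERG S96E cells. In windows with 46 to 50% it was 7.66% and 15.91%, and in those with 50% or more it was 6.33% and 15.39%. Across the 28079 windows, which are neighbours on the same chromosomes and come from the same libraries, the G and C content had a Spearman correlation of 0.61 with the difference, 0.40 with coverage in ERG S96E cells, 0.12 with coverage in ERG cells and 0.11 with coverage in vector cells. The regions found only in ERG S96E cells had a median of 45.7% G and C bases, and those found only in ERG cells 37.3%. The part of base composition in the differences at single genes was not tested, since each line has 1 library.

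The shares are also given within classes of base composition. Among genes whose loci had at least 50% G and C bases, 18.81% of 7437 had at least 20 points more coverage in ERG S96E cells. Of the 104 homeobox genes in this class, HOX genes included, 52 did, or 50.0%. Of the 2619 genes of the class under 0.1 FPKM in both vector and ERG cells, 39.02% did. In the class of 46 to 50% the shares were 12.72% of all genes, 25.0% of 20 homeobox genes and 26.4% of genes under 0.1 FPKM. Under 38% they were 0.36%, 0 of 4 genes and 0.75%.

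**Figure D5:**
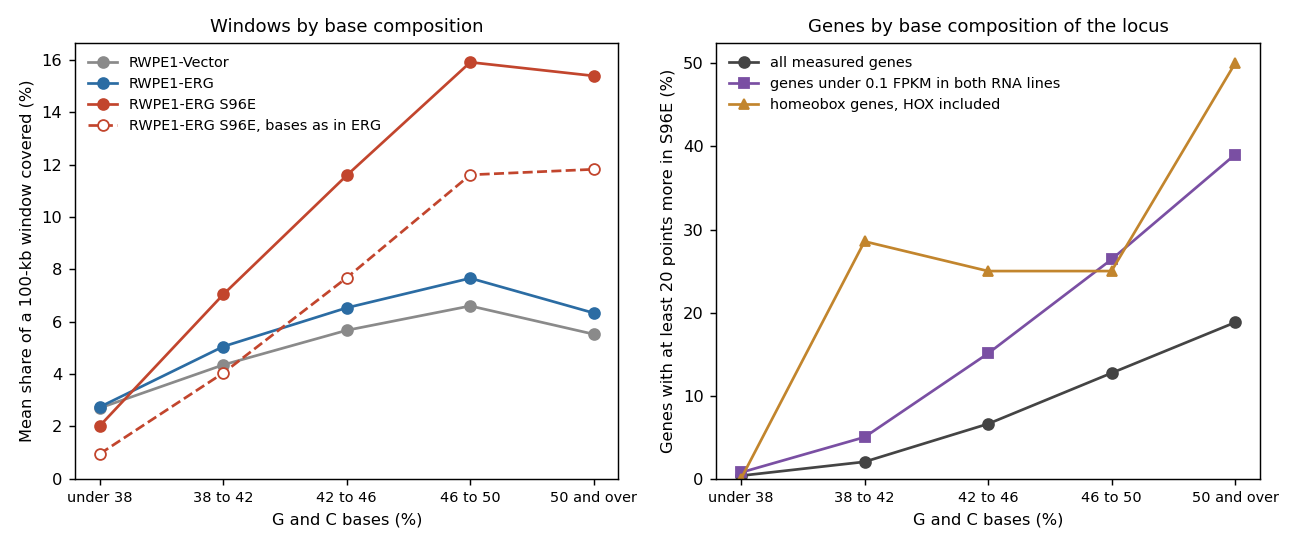
Left, the mean share of a 100-kb window covered by H3K27me3 regions (y axis, %) in 5 classes of G and C content (x axis, %), for the vector, ERG and ERG S96E lists, with the ERG S96E list cut to the bases of the ERG list as open points. Right, the share of genes with at least 20 points more coverage in ERG S96E cells in the same classes, for all genes, genes under 0.1 FPKM and homeobox genes. ERG S96E coverage climbs from 2.02% to 15.91% over the first 4 classes, while ERG coverage goes from 2.74% to 7.66%.

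The genes with more coverage were also described by RNA, base composition and other deposited measures. Of the 2246, 77.2% were under 0.1 FPKM in both vector and ERG cells, where 38.2% of all measured genes were, and 6.28% were at or above 1 FPKM in ERG cells, where 48.2% of all were. Their loci were short, with a median of 10.19 kb against 32.7 kb, and richer in G and C bases, with 52.1% against 44.5%. A deposited ERK2 peak of the ERG line lay in or within 5 kb of 4.41% of their loci and 19.6% of all loci. Open chromatin by ATAC-seq lay within 1 kb of the gene start at 31.0% of their protein-coding genes and at 66.3% of all. Their median coverage in vector cells was 12.9%, and 0.82% over all genes. Most of these traits were shared by the 503 genes covered over more than 50% in both lines. Of those, 84.1% were under 0.1 FPKM in both RNA lines and 3.38% had an ERK2 peak in or within 5 kb of the locus. Their median locus was 5.19 kb, with 53.0% G and C bases. Of the 56 genes with less coverage, 92.9% were under 0.1 FPKM. The length of the locus also enters the coverage itself, as its denominator, and a shorter locus leaves less room for an ERK2 peak. Expression in ERG S96E cells was not analysed here.

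Few active genes were among them, and 141 were at or above 1 FPKM in ERG cells. MDK, which encodes the growth factor midkine and was at 81.7 FPKM, was covered to 0.0% and 31.4%. IGFBP3, which binds insulin-like growth factors, was at 4.44 FPKM in vector cells and 41.1 FPKM in ERG cells, and was covered to 6.4% and 29.3%. CAMTA1, at 65.3 FPKM, has a locus of 984.4 kb that was covered to 15.2% and 35.7%. NOC2L and SHMT2, at 115 and 77.5 FPKM, share their loci with another gene, so which gene the regions lie on cannot be told from these loci. These genes were chosen after their values were seen.

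Around the starts of 17254 protein-coding genes, within 1 kb on either side, 2855 had a region in both lines, 1534, or 8.89%, in ERG S96E cells alone, and 306, or 1.77%, in ERG cells alone. The starts marked in ERG cells alone had a median of 42.3% G and C bases and those marked in ERG S96E cells alone 56.8%, with 55.5% over all starts. A region was also present in vector cells at 64.2% of the starts marked in both lines, at 22.6% of those marked in ERG S96E cells alone and at 23.5% of those marked in ERG cells alone. The genes marked at the start in ERG S96E cells alone were under 0.1 FPKM in both RNA lines in 49.2% of cases and at or above 1 FPKM in ERG cells in 26.1%. These shares were 68.7% and 12.1% for the starts marked in both lines.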

How the data were processed

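The authors pooled DNA from 3 ChIP experiments per line, aligned the reads to hg19 and called broad regions against input with MACS2. The deposited lists give each region's pileup signal, fold enrichment over input, and −log10 p-value and −log10 q-value. Per the file headers, the larger library was scaled to the smaller. Reads per gene are not in these lists, so no counting interval is given. Expression is the deposited FPKM, which the authors computed with Cuffdiff over 3 pooled libraries per line. The p-value and q-value columns of their comparisons were not used, and 0 columns of single samples were left out.

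The lists were cut to the same number of regions by lowest p-value. The share of each locus of at least 1 kb, 100-kb window and 1 kb either side of a gene start inside regions was computed, with a call at 20 points. Gene starts are those of GENCODE release 44 on GRCh37. 37 gene lists were described. Named genes are the 12 largest differences at loci of at least 10 kb per direction, up to 2 of the highest and 2 of the lowest per list, the genes named for ERG, and genes in the 5 longest runs, and the other genes named were chosen after their values were seen. Some genes that the rule names are not reported here. Members and lists were chosen with earlier results of these data known. The code was tested on simulated data, where 0 of 400 intervals differed from a direct count and 198 of 200 planted differences were found among 2000 genes. Coverage was computed in Python 3.11.15 with pandas 2.3.3 and numpy 2.4.6, sequence was read with pysam 0.24.0 and plots were drawn with matplotlib 3.10.9.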

Additional observations from a re-analysis of the deposited data

How the results depend on the processing

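No paired analysis was possible because each line has 1 library, and no library could be left out for the same reason. Of genes with more coverage in ERG S96E cells there were 2246, and 1404 with equal covered bases, 3898 at a threshold of 10 points, 672 at 40 points and 1139 at loci of at least 10 kb. Of genes with less coverage there were 56, and 113 with equal covered bases, 152 at 10 points, 14 at 40 points, 127 with no minimum length, 1 at loci of at least 10 kb and 6 with 5 kb added to either side of the locus. Windows with more coverage numbered 301 with equal covered bases, 3096 at 10 points, 32 at 40 points and 12 in windows of 1 Mb, and windows with less coverage 3 at 10 points. Gene starts marked in ERG S96E cells alone numbered 994 with equal covered bases, and those marked in ERG cells alone 543, or 537 within 2.5 kb. Changes of threshold, locus length and window width move the counts by their construction, since fewer or more genes or windows can pass. With 5 kb added, genes with more coverage went from 2246 to 1916 and those with less from 56 to 6. With equal covered bases, windows with more coverage went from 1014 to 301, so that count depended on the larger area of the ERG S96E list. The other counts over all genes, windows and starts stayed within 1.5 times of the main value, and the median difference was 0.0 in each of its settings. The lists with a larger share of genes with more coverage than all genes numbered 19 to 27. In each setting more lists had an excess of genes with more coverage than of genes with less, and the olfactory receptors with equal covered bases were the one reversal of balance. This tally follows from the balance over all genes, 2246 with more against 56 with less in the main setting, and says little about the families. The use of each gene's own GENCODE span gave 1912 and 45 genes and counting each locus once gave 1992 and 53, both settings chosen after seeing the data. With 1 library a line, differences between lines, depths and read lengths cannot be told apart.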
